A study of Mus musculus with 6 samples.

Results

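Interleukins and chemokines are secreted proteins through which skin cells and immune cells signal to each other, and the genes described here are those of the interleukins, the chemokines and their receptors. They were chosen by name, as every array probe whose gene symbol starts with Il, Cxcl, Cxcr, Ccl or Ccr followed by a digit or with Cx3c, together with Tslp, Osmr, Lifr, Crlf2 and Csf2. This gave 130 genes with 177 probes, of 16593 named genes and 25697 probes on the array. Gene expression had been profiled in keratinocytes isolated from the epidermis of 10-wk-old mice on a C57BL6 background. In the KO mice both Med1 alleles were floxed, and a Cre transgene driven by the keratin 14 promoter removed them in epithelial cells, since that promoter is active in basal keratinocytes and not in immune cells. The controls (CON) carried the same floxed alleles without Cre. There were 3 KO and 3 CON arrays, and each group held cells from 2 mice. At least 2 arrays of each group thus share a mouse, and which ones is not given. The p-values measure only the spread between these arrays, not the spread between independent mice.

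Chemokines attract leukocytes through G protein-coupled receptors, and the letters of their names (CXC, CC, CX3C) describe the spacing of their first cysteines. Interleukins act through paired receptor chains, most of which signal through JAK kinases and STAT factors, while the interleukin 1 family signals through MyD88 and NF-κB. Keratinocytes make several of these ligands without stimulation and keep others ready for release after injury. They also carry receptors for several cytokines, among them interleukins 17, 20 and 31.

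Between 9866 and 10636 probes were detected per array, of which 47 to 54 belonged to the genes described here. Across all tested probes the arrays of 1 group correlated at 0.989 to 0.993 and those of different groups at 0.965 to 0.968. Med1 itself was lower in KO (change -0.96 ± 0.15, SE, adjusted p = 0.00179), although its probe may lie outside the deleted part. The keratinocyte markers listed for the label check were detected for 11 of the 12 genes on the array, and their summed level was 88200 to 90600 in KO and 97600 to 101800 in CON (normalized intensity, linear). Of these 11 genes 0 rose and 3 fell, namely Krt5 (change -0.68 ± 0.10), Itgb4 (-0.62 ± 0.10) and Trp63 (-0.31 ± 0.10). For this and the other marker lists, the shares over all genes tested were 14.1% higher and 14.7% lower. Krt14 had the same level, 14.7 (log2), on every array. Quantile normalization gives equal ranks equal values, so the part of Krt14 in the keratinocyte sum was fixed and cannot show a difference. Of 5 tested fibroblast markers 4 fell, among them Serpinf1 (-1.30 ± 0.14) and Dcn (-1.23 ± 0.16), and 6 of 11 on the array were not detected. The 1 that rose was Thy1 (0.53 ± 0.10), which also stands in the T cell list. The sum was 1616 to 1739 in KO and 1493 to 1660 in CON. It mainly follows Thy1, the brightest of the 5 (mean 10.2 in KO and 9.69 in CON, log2), and so does not show the fall of the other 4. Of the other cell types, markers of sebocytes were higher, with 7 of 7 tested and a summed level of 6078 to 6411 in KO and 2930 to 3205 in CON. Those of melanocytes were lower, with 4 of 5 tested and a sum of 326 to 344 in KO and 686 to 761 in CON. The part of these shifts in the changes of the genes described here was not tested. The study describes hair follicles of KO mice as in the growth phase and those of CON mice as resting, so genotype and hair cycle phase cannot be told apart. In these preparations fewer cells of a type and less RNA per cell cannot be told apart either.

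Of the 130 genes, 40 were detected on at least 3 of the 6 arrays and were tested. Of these, 23 differed (57.5%, against 28.8% of all 7461 genes tested). In KO 12 of the 40 were higher (30% of the tested genes, against 14.1% of all genes) and 11 lower (27.5%, against 14.7%). The KO and CON arrays did not overlap for 27 of the 40 (67.5%, against 45.2% of all genes tested). The median change of the 40 genes was 0.06 and that of all genes tested -0.0015, each change being the KO mean minus the CON mean of log2 levels. By role, 10 of 18 tested ligands rose and 3 fell, whereas 1 of 18 tested receptors rose and 8 fell, and 1 of 3 antagonists and binding proteins rose. This split by role was noticed after the values were seen, and it was not tested. Of the called genes, 5, namely Ccl1, Ccl4, Il1b, Il23a and Il12rb2, were detected on all arrays of 1 group and on none of the other, so they entered the test only through the group in which they were high. When a probe had to be detected on all 6 arrays, 30 genes remained, of which 5 rose and 10 fell (15.1% and 15.3% of all genes under that filter), with 4 ligands and 1 receptor among those that rose. The count of receptors that fell was 4 with median scaling and 4 to 6 when any 1 array was left out, with 4 each without KO replicate 1 and without CON replicate 3.

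**Figure D1:**
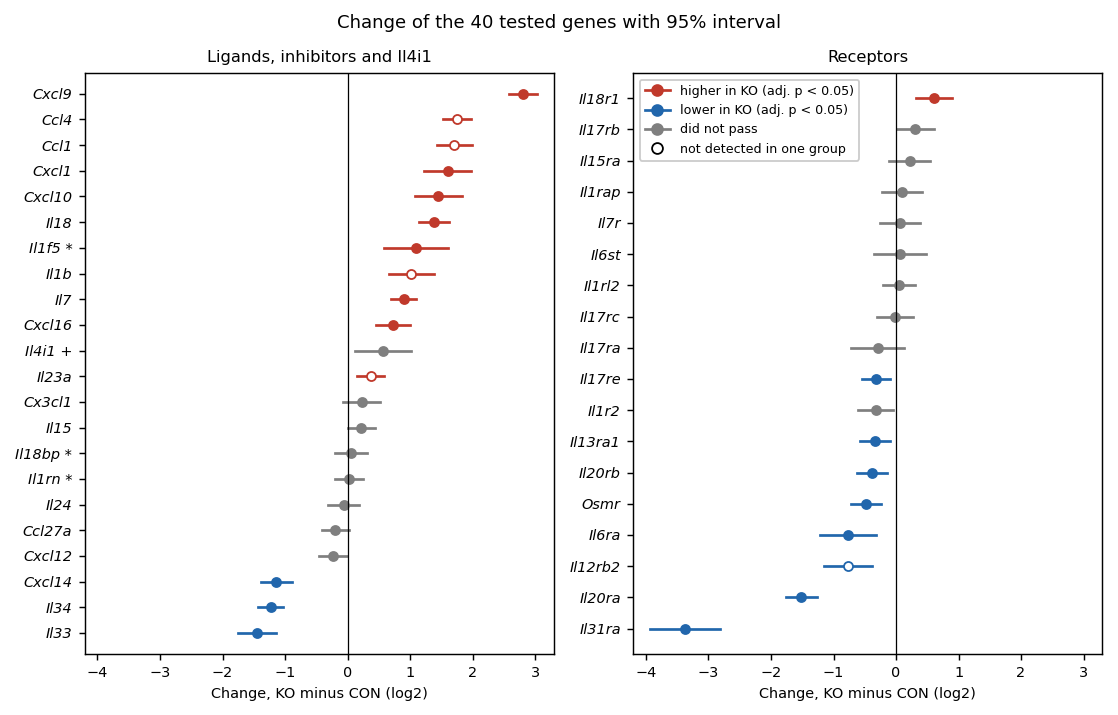
Change (KO minus CON, log2, on the horizontal axis) of each of the 40 tested genes with its 95% interval, ligands on the left and receptors on the right. An asterisk marks antagonists and binding proteins and a plus sign the enzyme gene Il4i1; open circles mark genes that no array of 1 group detected, drawn at their fitted change, which is no bound. Of the 18 ligands 10 lie above 0 and pass the test, and of the 18 receptors 8 lie below 0 and pass.

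Cxcl9 and Cxcl10 encode chemokines that interferon gamma induces and that attract activated T cells through the receptor CXCR3. Cxcl9 had the largest rise of the 40 genes. Its levels were 8.77, 8.61 and 8.73 in KO, against 5.82, 5.95 and 5.91 in CON (normalized intensity, log2). The groups were far apart and the arrays of each were tight, with a change of 2.81 ± 0.10 (SE, n = 3 arrays each, adjusted p = 1.4e-06), or 6.99-fold. Cxcl10 had levels of 6.77, 6.74 and 6.36 in KO, against 5.42, 5.21 and 4.89 in CON. All KO arrays lay above all CON arrays (change 1.45 ± 0.16, adjusted p = 0.000402), but only 1 CON array detected the probe, so this change may be understated. Neither Cxcl11, the other ligand of this receptor, nor Cxcr3 itself was detected on any array. For macrophages, which also make these chemokines, the summed level of the markers overlapped between the groups. It was 508 to 649 in KO and 530 to 618 in CON. Of the 2 tested genes, Lyz1 and Fcer1g, 0 passed, and 11 of 15 on the array were not detected, among them Adgre1, C1qa, C1qb, C1qc and Cd163. The part of macrophages in these chemokine changes was not tested.

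The sequences before the transcription start of Cxcl9, Cxcl10, Cxcl1 and Il31ra are shown because these genes had large changes and 3 of them rose together. Each is the 250 bases upstream of the start on the gene's strand (RefSeq, GRCm38.p6), which end at the base before the start. Capitals mark matches, on either strand, to 4 motifs, namely GAS (TTCNNNGAA), which STAT factors bind, the ISRE core (GAAA, 2 bases of any kind, GAAA), which interferon regulatory factors bind, AP-1 (TGANTCA), and κB (GGGA, any base, TT, any base, CC), which NF-κB binds. The windows are chr5:92328080-92328329 (minus strand) for Cxcl9, chr5:92348890-92349139 (minus strand) for Cxcl10, chr5:90890995-90891244 (plus strand) for Cxcl1 and chr13:112580663-112580912 (minus strand) for Il31ra.
Cxcl9: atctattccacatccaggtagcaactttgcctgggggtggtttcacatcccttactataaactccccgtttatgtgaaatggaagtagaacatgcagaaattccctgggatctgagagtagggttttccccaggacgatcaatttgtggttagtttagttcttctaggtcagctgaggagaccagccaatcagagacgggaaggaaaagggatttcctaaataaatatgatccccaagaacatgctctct
Cxcl10: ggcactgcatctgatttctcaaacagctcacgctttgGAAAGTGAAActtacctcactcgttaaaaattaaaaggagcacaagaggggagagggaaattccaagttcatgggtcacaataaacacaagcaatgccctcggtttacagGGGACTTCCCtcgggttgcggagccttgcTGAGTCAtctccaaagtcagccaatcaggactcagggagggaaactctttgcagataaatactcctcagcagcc
Cxcl1: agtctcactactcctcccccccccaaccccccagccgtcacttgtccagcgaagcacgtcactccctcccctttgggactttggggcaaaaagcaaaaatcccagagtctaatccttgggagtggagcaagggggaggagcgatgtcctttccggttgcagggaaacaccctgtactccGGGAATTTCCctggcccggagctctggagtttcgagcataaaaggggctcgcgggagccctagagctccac
Il31ra: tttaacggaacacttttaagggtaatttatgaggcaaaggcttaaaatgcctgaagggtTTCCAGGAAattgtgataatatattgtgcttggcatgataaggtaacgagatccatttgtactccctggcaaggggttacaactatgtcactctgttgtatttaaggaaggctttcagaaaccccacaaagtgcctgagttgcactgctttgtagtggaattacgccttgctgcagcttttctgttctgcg
Cxcl10 held an ISRE core, a κB and an AP-1 match, Cxcl1 a κB match and Il31ra a GAS match, whereas the letters searched for were not in the Cxcl9 window. Promoters were given for 32 of the 40 tested genes, 41 promoters in all. A gene was counted when any of its promoters held a match, whereas the shares over all promoters are per promoter, so the 2 are not quite alike. A κB match stood before 2 of the 8 genes with a promoter that rose, 0 of 10 that fell and 0 of 14 that did not pass, against 0.98% of all 32851 promoters of this length. A GAS match stood before 2 of 8, 3 of 10 and 2 of 14 (7.02% of all promoters), an ISRE core before 1, 1 and 0 (2.98%) and an AP-1 match before 1, 1 and 4 (6.75%). A match is a description of the sequence, and binding was not measured here.

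Among the other chemokines that rose, Cxcl1, which attracts neutrophils, had levels of 6.90, 6.73 and 6.99 in KO, against 5.60, 4.94 and 5.28 in CON. The KO arrays were close together and the CON arrays lower and more spread (change 1.60 ± 0.16, adjusted p = 0.000249), with the probe detected on 2 of 3 CON arrays. Of the neutrophil markers, 9 of 11 on the array were not detected, among them Mpo, Elane and Cxcr2, and the summed level of the list was 357 to 406 in KO and 257 to 275 in CON. S100a8, which keratinocytes also express, was the 1 marker tested and rose (change 0.50 ± 0.10, adjusted p = 0.0073). Cxcl16, a membrane-anchored chemokine, had levels of 10.39, 10.36 and 10.16 in KO, against 9.45, 9.77 and 9.52 in CON, and was 1.65-fold higher (adjusted p = 0.00275).

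Ccl1 and Ccl4, chemokines that activated T cells and myeloid cells release, were detected on all KO arrays and on no CON array. Ccl4 had levels of 6.08, 6.23 and 6.18 in KO, against 4.41, 4.50 and 4.32 in CON, and was at least 1.93-fold higher (adjusted p = 1.18e-05). This rests on 1 of its 2 probes, since no array detected the other (mean 4.37 in KO and 4.30 in CON). Ccl1 had levels of 5.95, 5.83 and 6.23 in KO, against 4.27, 4.22 and 4.41 in CON, and was at least 1.73-fold higher (adjusted p = 4.56e-05). In such a bound the mean of the brighter group is divided by what the other group could have held unseen, namely the lowest detected signal of each of its arrays, or the probe's own signal where higher. T cell markers rose in the same arrays. Their summed level was 4487 to 5016 in KO and 3395 to 3633 in CON. Of 10 tested markers 5 rose and 0 fell, where 14.1% of all genes tested rose and 14.7% fell. Among those that rose were Cd3d (change 0.54 ± 0.10) and Cd3e (0.36 ± 0.10) of the T cell receptor complex. Of the same complex, Cd3g (0.38 ± 0.12, adjusted p = 0.0517) and Cd247 (-0.06 ± 0.14, adjusted p = 0.791) did not pass. Cd4, Cd8a, Gzma, Gzmb and Ptprc were among the 7 of 18 markers on the array that were not detected. Xcl1, a chemokine gene of T cells outside the naming rule, also rose (change 0.76 ± 0.16, adjusted p = 0.00873). The part of T cells in these chemokine changes was not tested.

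**Figure D2:**
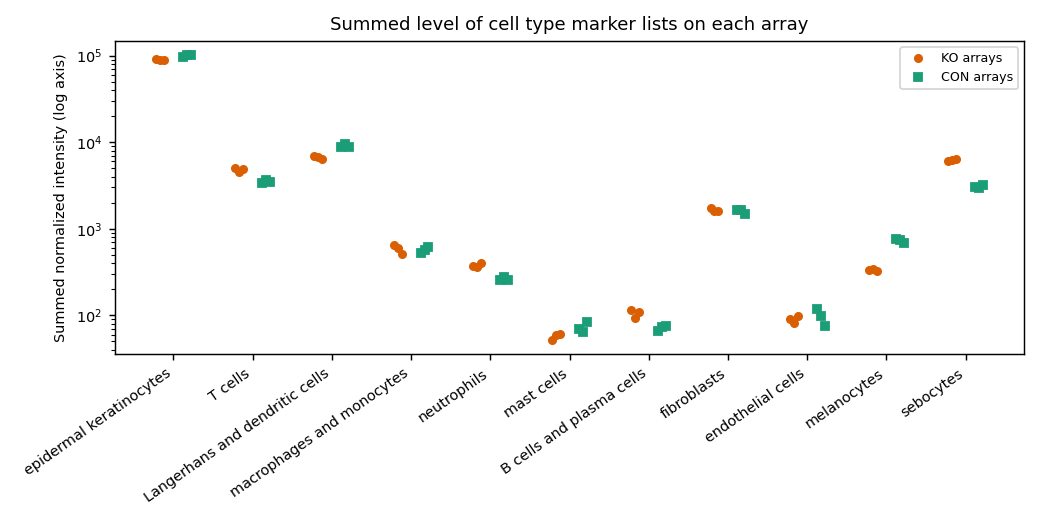
Summed normalized intensity (vertical axis, logarithmic) of the marker genes of 11 cell types, with 1 point for each of the 3 KO arrays (circles) and the 3 CON arrays (squares). The T cell list lies higher in KO (4487 to 5016, against 3395 to 3633 in CON) and the Langerhans and dendritic cell list lower (6341 to 6947, against 8707 to 9427 in CON).

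Cxcl14 was the 1 chemokine gene that was called lower by its brightest probe. This chemokine, which epithelia make without stimulation, had levels of 9.93, 9.86 and 9.83 in KO, against 11.11, 11.11 and 10.83 in CON. It was 2.21-fold lower (change -1.14 ± 0.11, adjusted p = 0.000157), and its second tested probe fell as well (change -0.81, adjusted p = 0.00276). Ccl27a, a keratinocyte chemokine that attracts T cells to skin, had levels of 13.13, 13.07 and 13.02 in KO, against 13.19, 13.27 and 13.34 in CON. Its groups did not overlap, but the change of -0.20 (95% interval -0.41 to 0.02) did not pass (adjusted p = 0.159), while a second, dimmer probe did (change -0.44 ± 0.10, adjusted p = 0.0104). For Cxcl12, the ligand of CXCR4, the brightest probe did not pass either (change -0.23, 95% interval -0.45 to -0.01, adjusted p = 0.107), and its 2 other tested probes did (changes -0.46 and -0.57, adjusted p = 0.0137 and 0.00683). Probes of these genes thus differed in call, and each gene was counted by its brightest probe. Ccl27a also has near-identical copies in the mouse genome that its probes may not tell apart. Cx3cl1, the membrane-bound chemokine fractalkine, did not pass (change 0.23, 95% interval -0.07 to 0.53).

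All 17 chemokine receptor genes under the naming rule, 10 Ccr, 6 Cxcr and Cx3cr1, were undetected on every array, including Cxcr3, Cxcr4 and Ccr6. Outside the rule, Xcr1 was not detected either, and the receptor-like gene Ccrl2 did not pass (change -0.21, 95% interval -0.54 to 0.12). Of the atypical receptors, which take up chemokines without signaling to G proteins, Ackr2 and Ackr4 fell, Ackr3 did not pass (change -0.10, 95% interval -0.40 to 0.20), and Ackr1 was not detected. Ackr2, which clears inflammatory CC chemokines, had levels of 7.28, 7.43 and 7.33 in KO, against 8.76, 8.70 and 8.41 in CON (change -1.28 ± 0.12, adjusted p = 0.000128). Ackr4 had levels of 5.90, 6.20 and 6.07 in KO, against 6.96, 7.24 and 7.47 in CON (change -1.17 ± 0.15, adjusted p = 0.000665). Both genes stand in a list of other chemokine genes and atypical receptors, of which 4 of 13 tested rose and 4 fell (median change -0.07). Over all genes tested 14.1% rose and 14.7% fell. Besides Ackr2 and Ackr4, the genes of that list with the smallest adjusted p were Cmtm8, of a chemokine-like family (change 1.13), and Cd74, a receptor for the cytokine MIF that Langerhans cells express strongly (change -0.85).

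**Figure D3:**
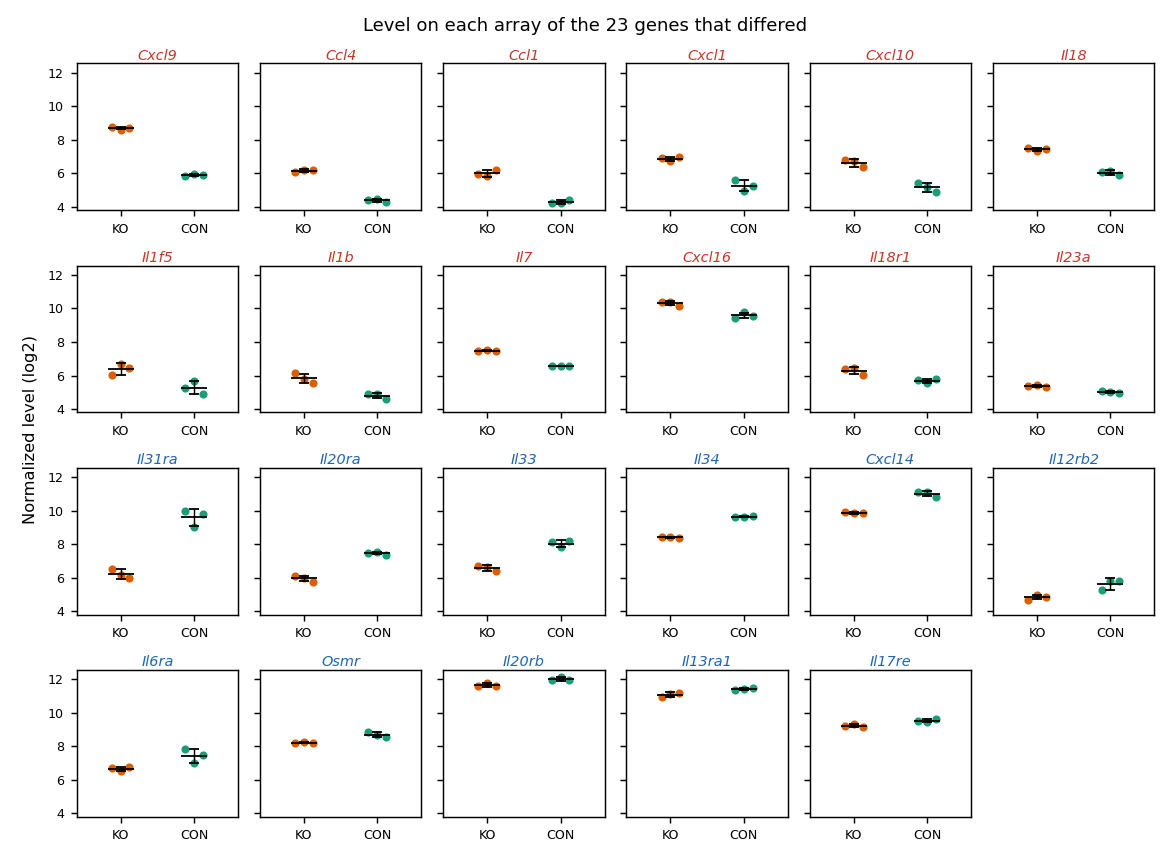
Normalized level (log2, vertical axis) on each of the 3 KO and 3 CON arrays of the 23 genes that differed, with the mean and SD over 3 arrays. Gene names in red rose and those in blue fell; in no panel do the KO and CON arrays overlap, and the gap is widest for Cxcl9 and Il31ra.

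The interleukin 1 family moved in both directions. Il18, a cytokine that caspase 1 activates, had levels of 7.50, 7.33 and 7.46 in KO, against 6.10, 6.14 and 5.89 in CON, and was 2.61-fold higher (change 1.38 ± 0.11, adjusted p = 5.68e-05). Il33, an alarmin held in the nucleus and released on damage, had levels of 6.72, 6.62 and 6.41 in KO, against 8.11, 7.80 and 8.17 in CON, and was 2.72-fold lower (change -1.44 ± 0.13, adjusted p = 0.000128). These opposite changes were of like size, and neither gene's groups overlapped. Il1b, the classical fever cytokine, had levels of 6.13, 5.82 and 5.54 in KO, against 4.92, 4.88 and 4.63 in CON. No CON array detected it, so it is given as at least 1.53-fold higher (adjusted p = 0.00195). Il1f5, which encodes the antagonist of the interleukin 36 receptor, had levels of 6.01, 6.70 and 6.43 in KO, against 5.28, 5.68 and 4.90 in CON (change 1.09 ± 0.22, adjusted p = 0.00778), a call that the methods' t-test did not make (adjusted p = 0.0854; 0.000734 to 0.0854 over the alternatives). Il1a, Il1f6 and Il1f9 were not detected on any array.

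Il18r1, the binding chain of the interleukin 18 receptor, had levels of 6.40, 6.44 and 6.06 in KO, against 5.74, 5.57 and 5.77 in CON, and was the 1 receptor gene that rose (1.52-fold, adjusted p = 0.00831). That call also ended with the methods' t-test (adjusted p = 0.0549; 0.00533 to 0.0549 over the alternatives). Its partner chain Il18rap was not detected, and Il18bp, which captures interleukin 18 outside cells, did not pass (change 0.05, 95% interval -0.20 to 0.30). Il1rn, the interleukin 1 receptor antagonist, had levels of 8.44, 8.54 and 8.47 in KO, against 8.58, 8.37 and 8.42 in CON, and these overlapped (change 0.02, 95% interval -0.20 to 0.25). The decoy receptor Il1r2 had a change of -0.33 (95% interval -0.60 to -0.05) and did not pass (adjusted p = 0.0827). It passed with 4 alternatives (adjusted p over all of them 0.0366 to 0.233). Il1rap, the shared accessory chain (change 0.09, interval -0.23 to 0.42), and Il1rl2, the interleukin 36 receptor (0.05, interval -0.20 to 0.30), did not pass, and Il1r1 was detected on 1 array.

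Downstream of these receptors, 3 of 16 tested genes of interleukin 1 and Toll receptor signaling rose and 1 fell (median change -0.13, against -0.0015 over all genes tested). Over all genes tested 14.1% rose and 14.7% fell. Casp1, the protease that activates interleukins 1β and 18, had levels of 11.34, 11.33 and 11.49 in KO, against 9.86, 9.74 and 9.69 in CON (change 1.62 ± 0.10, adjusted p = 1.76e-05). Casp4, an inflammatory caspase of the same family, rose by 1.46 ± 0.11 and Irak3, an inhibitory kinase homolog of the pathway, by 1.10 ± 0.10, while Peli2, a ubiquitin ligase, fell by 0.77 ± 0.09. Of 18 tested genes of NF-κB and its regulators 3 rose and 6 fell (median -0.18), to be read beside the same shares. Bcl3, a coactivator of NF-κB, was at least 1.31-fold higher, and Nfkbid was higher by 0.52 ± 0.10. The inhibitor gene Nfkbia fell by 0.57 ± 0.11 and the adaptor gene Traf2 by 0.60 ± 0.13.

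Among cytokines that sustain epidermal immune cells, Il7 and Il34 moved in opposite directions. Il34, a ligand of the CSF1 receptor that keratinocytes make and that Langerhans cells need, had levels of 8.41, 8.42 and 8.38 in KO, against 9.61, 9.62 and 9.66 in CON. The arrays of each group lay within 0.05 of each other, and the gene was 2.35-fold lower (change -1.23 ± 0.09, adjusted p = 3.78e-05). Markers of Langerhans and dendritic cells were lower in the same arrays, with a summed level of 6341 to 6947 in KO and 8707 to 9427 in CON. Of 9 tested markers 6 fell and 0 rose, where 14.7% of all genes tested fell and 14.1% rose. Cd207, which encodes langerin, was among those that fell (change -0.47 ± 0.11, adjusted p = 0.013), while Itgax, Ccr7, Flt3, Batf3 and Cd209a were not detected. Whether these values are linked was not tested. Il7, a survival factor of T cells, had levels of 7.47, 7.52 and 7.45 in KO, against 6.58, 6.58 and 6.59 in CON, and was 1.86-fold higher (change 0.90 ± 0.09, adjusted p = 0.000183). Il15, which epidermal T cells also need, did not pass (change 0.22, 95% interval 0.00 to 0.43, adjusted p = 0.128), nor did Il15ra (0.22, interval -0.10 to 0.55) or Il7r (0.07, interval -0.25 to 0.39).

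Il23a, a subunit of interleukin 23, lay near background. It had levels of 5.40, 5.44 and 5.30 in KO, against 5.06, 5.01 and 4.97 in CON, with 0 of 3 CON arrays detecting it, and was at least 1.12-fold higher (adjusted p = 0.0187). This too rests on 1 of 2 probes, since no array detected the other (mean 4.30 in KO and 4.44 in CON). The call ended with 8 of 18 alternatives (adjusted p over all of them 0.016 to 0.236), namely without KO replicate 1 (0.0531), without KO replicate 2 (0.0743), without CON replicate 3 (0.0552) and with 5 other settings of processing or moderation. Il24, of the interleukin 20 subfamily, did not pass (change -0.06, 95% interval -0.31 to 0.19), and its neighbours Il19 and Il20 were not detected.

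Il31ra, which with Osmr forms the receptor of the itch cytokine interleukin 31, had the largest fall of the 40 genes. Its levels were 6.53, 6.19 and 5.98 in KO, against 9.98, 9.02 and 9.81 in CON. All 6 arrays detected it, CON replicate 2 lay below the other 2 CON arrays, and the gene was 10.3-fold lower (change -3.37 ± 0.25, adjusted p = 4.56e-05). Osmr, which also serves oncostatin M, had levels of 8.18, 8.24 and 8.19 in KO, against 8.84, 8.69 and 8.53 in CON, and was 1.40-fold lower (change -0.48 ± 0.11, adjusted p = 0.0106). With median scaling Osmr no longer passed (adjusted p = 0.0662, with a range of 0.00159 to 0.0662 over the alternatives). Il6st, the gp130 chain that signals for many cytokines of this class, did not pass (change 0.06, 95% interval -0.35 to 0.47), and Lifr was detected on 1 array only. Il6ra, which binds interleukin 6 beside gp130, had levels of 6.72, 6.53 and 6.76 in KO, against 7.83, 6.98 and 7.48 in CON (change -0.76 ± 0.20, adjusted p = 0.0208). Its CON arrays were spread, and the call ended with 5 of 19 alternatives (adjusted p 0.00266 to 0.128), among them without KO replicate 1 (0.0518), KO replicate 2 (0.0702) or CON replicate 3 (0.0559).

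Both chains of the type I receptor for interleukins 19, 20 and 24 fell, by different amounts. Il20ra had levels of 6.08, 6.01 and 5.77 in KO, against 7.49, 7.53 and 7.38 in CON, and was 2.85-fold lower (change -1.51 ± 0.11, adjusted p = 4.84e-05), and its second tested probe fell by 1.70, while no array detected the third. Il20rb had levels of 11.59, 11.77 and 11.57 in KO, against 11.95, 12.16 and 11.97 in CON, and was 1.30-fold lower (change -0.38 ± 0.11, adjusted p = 0.0279). The Il20rb call was less stable. It ended with 6 of 19 alternatives (adjusted p 0.000846 to 0.267), among them median scaling (0.267) and leaving out KO replicate 1 (0.0852), KO replicate 3 (0.0927), CON replicate 2 (0.0813) or CON replicate 3 (0.0508), and its second probe did not pass (change -0.36, adjusted p = 0.328). Il22ra1, the other partner of Il20rb, was not detected.

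Il12rb2, the signaling chain of the interleukin 12 receptor, had levels of 4.70, 4.98 and 4.88 in KO, against 5.24, 5.83 and 5.81 in CON. It was detected on no KO array and was at least 1.30-fold lower (adjusted p = 0.01), a call that the methods' t-test did not make (adjusted p = 0.0827; 0.00176 to 0.0827 over the alternatives). Il17re, a receptor for interleukin 17C, had levels of 9.23, 9.30 and 9.12 in KO, against 9.53, 9.46 and 9.61 in CON (change -0.32 ± 0.10, adjusted p = 0.0415), and its 2 other tested probes also fell (changes -0.59 and -0.40), while no array detected a further probe. Il13ra1, which with the interleukin 4 receptor binds interleukins 4 and 13, had levels of 10.91, 11.14 and 11.17 in KO, against 11.33, 11.44 and 11.45 in CON (change -0.33 ± 0.11, adjusted p = 0.048). These 2 calls stood close to the threshold. Each ended when any 1 of the 6 arrays was left out, with adjusted p from 0.0532 (CON replicate 2) to 0.133 (KO replicate 3) for Il17re and from 0.0582 (CON replicate 1) to 0.15 (KO replicate 1) for Il13ra1. Over all alternatives adjusted p was 0.00966 to 0.26 for Il17re and 0.00392 to 0.337 for Il13ra1. The other interleukin 17 receptor genes did not pass, with changes of -0.02 for Il17rc (95% interval -0.31 to 0.27), -0.29 for Il17ra (-0.72 to 0.13) and 0.31 for Il17rb (0.02 to 0.60, adjusted p = 0.106).

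Of 19 tested JAK, STAT and SOCS genes and other regulators of cytokine receptors 3 rose and 2 fell (median change -0.11), where 14.1% of all genes tested rose and 14.7% fell. Socs2, a feedback inhibitor, was detected on 0 of 3 CON arrays and was at least 1.88-fold higher, and Ptpn1, a phosphatase, was higher by 0.41 ± 0.11. Socs3, the feedback inhibitor of gp130 receptors, had levels of 9.61, 9.73 and 9.71 in KO, against 10.57, 10.38 and 10.43 in CON (change -0.77 ± 0.10, adjusted p = 0.000712). Pias3, an inhibitor of STAT3, fell by 0.58 ± 0.10. Of 9 tested genes of interleukin 17 signaling and its keratinocyte targets 3 rose and 2 fell (median 0.11), with the antimicrobial genes Lcn2 at least 1.62-fold and Defb14 at least 1.07-fold higher, S100a8 higher by 0.50 and Traf5 lower by 0.72 ± 0.11 on the log2 scale.

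Among interferons and their receptors and factors, 1 of 6 tested genes rose and 1 fell (median 0.10). For this list and those that follow, the shares over all genes tested were 14.1% higher and 14.7% lower. Ifngr1, a chain of the interferon gamma receptor, fell by 0.76 ± 0.13 (adjusted p = 0.00281) and Irf9 rose by 0.33 ± 0.11 (adjusted p = 0.0496), while Ifng, Ifnb1 and Ifnk were not detected. Ifnlr1, a receptor chain for interferon lambda (change -0.26, 95% interval -0.49 to -0.02), and the transcription factor gene Irf1 (0.25, interval -0.02 to 0.52) did not pass. Of 15 tested ligands and receptors of the TNF family 1 rose and 4 fell (median -0.09). Tnfrsf19 fell by 1.24 ± 0.10, Fas, a death receptor gene, by 0.59 ± 0.11 and Tnfrsf18 by 0.47 ± 0.11, while Tnfrsf12a, the receptor of the cytokine TWEAK, rose by 0.55 ± 0.11. Of the other cytokines and receptors of the gp130 and blood cell growth factor classes 4 of 22 on the array were tested, and Crlf3 (change -0.42 ± 0.10) and the growth hormone receptor gene Ghr (-0.40 ± 0.12) fell (median change of the list -0.38). Ctf1, which encodes cardiotrophin (change -0.36, interval -0.63 to -0.08), and Csf1, which like Il34 encodes a ligand of the CSF1 receptor (-0.29, interval -0.61 to 0.03), did not pass.

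Many of these genes lie in clusters, and in some clusters the tested genes differed in call (gene order from RefSeq, GRCm38.p6). Il31ra lies next to Il6st on chromosome 13, with changes of -3.37 and 0.06. Il17re lies next to Il17rc on chromosome 6, with changes of -0.32 and -0.02, though the Il17re call ended when any 1 array was left out. On chromosome 1 the order Il1r2, Il1r1, Il1rl2, Il18r1, Il18rap held 1 gene that rose, Il18r1. Il1rl1, which was not analysed here, lies between Il1rl2 and Il18r1. On chromosome 2 Il1f5 rose in the order Il1f9, Il1f6, Il1f5, Il1f10, Il1rn while Il1rn did not pass. On chromosome 11 Ccl1 and Ccl4, each at the end of a row of Ccl genes, were the tested genes of their rows, with Ccl2, Ccl12, Ccl8, Ccl3 and Ccl5 undetected on every array. In contrast Cxcl9 and Cxcl10, with Art3 between them on chromosome 5, both rose. Il22ra2, which was not detected, lies between Ifngr1 and Il20ra on chromosome 10, both of which fell.

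**Figure D4:**
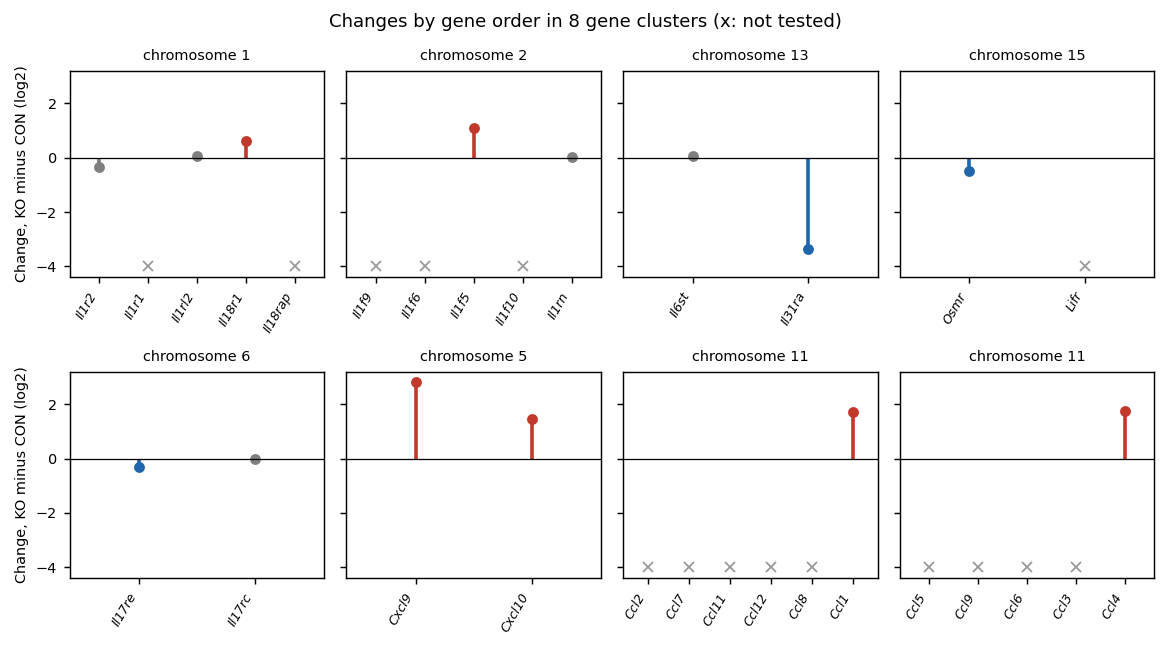
Change (KO minus CON, log2, vertical axis) of genes in 8 clusters, in their order along the chromosome on the horizontal axis; red points rose, blue points fell, grey points did not pass, and crosses at the bottom mark genes that were not tested. The widest step between tested neighbours is that between Il6st (0.06) and Il31ra (-3.37).

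For the remaining genes no change is given. Of these, 84 were not detected on any array, among them Tslp, which encodes an epithelial cytokine of allergic inflammation, Csf2, Il4, Il6, Il10, Il17a, Il17f, Il22 and Ccl20, the ligand of CCR6. The other 6, Ccl7, Ccl11, Il13, Il17d, Il1r1 and Lifr, were detected on 1 or 2 arrays. By role, 50 of 72 ligands and 33 of 53 receptors on the array were not detected. Il4i1, which shares the name but encodes an enzyme that breaks down amino acids, had levels of 6.06, 5.84 and 5.89 in KO, against 5.08, 5.85 and 5.16 in CON. CON replicate 2 overlapped with KO, and the change of 0.56 ± 0.19 did not pass (adjusted p = 0.0613) except without that array (0.0025) or with 3 other settings (adjusted p over all alternatives 0.0025 to 0.213). Crlf2, Il31 and Il1rl1, which encodes the interleukin 33 receptor, were not analysed here.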

How the data were processed

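Total RNA of epidermal keratinocytes was hybridized to 1-colour Illumina MouseRef-8 v2.0 beadchips. The authors deposited a linear probe intensity per array, not normalized, from GenomeStudio (2011.1, per the submitters' processing notes), with a detection p-value deposited beside each intensity. A second deposited table of normalized intensity served as an alternative.

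Background correction from the detection p-values, an offset of 16, quantile normalization and log2 were done with neqc in limma (version 3.58.1, R 4.3.3), which understates changes of dim genes. Probes with detection p below 0.01 on at least 3 of 6 arrays (10386 probes, 7461 genes) were tested with lmFit and eBayes, two-sided, with Benjamini-Hochberg adjustment over all of them at 0.05. The methods name a plain t-test, used as an alternative. A gene is represented by its tested probe with the highest mean level. Errors of changes are moderated standard errors (SE) and intervals are at 95%. The fit was tested on simulated data. The number of arrays and of mice limits the precision.

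Probes were named from the platform annotation (23978 with 1 symbol, 0 with several, 1719 unnamed here), and all 177 member probes matched RefSeq by Entrez ID. Members, gene lists and motifs were chosen with earlier results of these data known. All members that passed were to be named, with levels on every array for the 16 with the smallest adjusted p, and 4 genes per pathway list. Pathway lists were described by counts and medians, with no set test. The alternatives were other background, offset, normalization, filter, moderation, weights, test, probe choice and replicate block, and leaving out each array.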

Additional observations from a re-analysis of the deposited data

How the results depend on the processing

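Of the 23 calls, 14 were the same under every alternative in which the gene was tested, and 9 ended under at least 1 (Il1f5, Il18r1, Il12rb2, Osmr, Il23a, Il6ra, Il20rb, Il17re and Il13ra1). Among the 14, Ccl1, Ccl4, Cxcl1, Cxcl10 and Il1b dropped out when detection was required on all 6 arrays, so their calls were not examined under that filter. The 12 genes that rose became 5 when detection was required on all 6 arrays, and 11 to 13 without any 1 array. The 11 that fell became 7 with median scaling, 7 with the methods' t-test, and 7 to 9 without any 1 array. Ligands that rose numbered 4 with detection on all 6 arrays, by construction of that filter for genes that 1 group did not detect, and 9 to 10 without any 1 array. The 3 ligands that fell became 5 when the probe with the smallest p stood for each gene, which adds Ccl27a and Cxcl12. The 1 receptor that rose became 0 with the methods' t-test. The 8 receptors that fell became 4 with median scaling, 5 with no filter, 4 with the methods' t-test, and 4 to 6 without any 1 array. These counts of ligands and receptors were added after seeing the data. For the other changes of count the cause was not tested.

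Some genes that did not pass changed sign. With median scaling the change was 0.0197 for Il17rc and -0.00504 for Il1rl2, and with the probe of smallest p it was -0.413 for Il15ra. Without any 1 array the lowest and highest changes were -0.0922 and 0.199 for Il6st, -0.0518 and 0.154 for Il7r, -0.0834 and 0.0829 for Il17rc, -0.0312 and 0.140 for Il18bp, -0.0677 and 0.180 for Il1rap, -0.0121 and 0.136 for Il1rl2, and -0.0219 and 0.0846 for Il1rn.

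The replicate numbers showed no pairing of the samples, though 3 arrays per group are too few to exclude it. Same-numbered KO and CON arrays deviated from their group means with correlations of -0.03, 0.07 and -0.05, and KO replicate 1 correlated best with CON replicate 3 (0.11). With the replicate block 12 genes rose and 9 fell, and the calls of Il17re (adjusted p = 0.0876) and Il13ra1 (0.0608) ended. Signal over background limits the values of genes near the lowest detected signal, which was 5.09 to 5.33 on the log2 scale.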
